A study of Caenorhabditis elegans with 6 samples.

Results

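The genes described here are 10 germ granule and germ plasm genes of Caenorhabditis elegans, taken from a list of symbols and matched by gene identifier to the rows of a gene count table. They are pgl-1, pgl-3, glh-1, glh-2, glh-4, deps-1, meg-1, meg-3, meg-4 and nos-2. All 10 of the 10 symbols had a row among the 20182 genes of the table, and all 10 passed the low-count filter that kept 13951 genes for testing. RNA depleted of ribosomal RNA was sequenced from early embryo extracts of 3 genotypes, each grown as 2 independent cultures at 20 °C. Strain GW638 lacks met-2 and set-25 (n = 2), strain GW828 lacks cec-4 (n = 2), and strain GW1 is wild-type (n = 2). MET-2 and SET-25 are methyltransferases that place the histone H3 lysine 9 (H3K9) mark, and CEC-4 is a perinuclear protein that binds this mark and anchors chromatin. The labels give no alleles and state only that the genes are deleted. Embryos were released from gravid adults between 60 and 65 h of growth, at a time that depended on the strain. Genotype and harvest time therefore cannot be told apart in the comparisons.

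Germ granules, called P granules in the worm, are condensates of RNA and protein that the zygote partitions into the germline precursor cells. PGL-1 and PGL-3 are RNA-binding scaffold proteins that can condense on their own, and the GLH proteins are DEAD-box RNA helicases related to Vasa. The MEG proteins are largely disordered, act in the embryo and control where granules form and dissolve, and MEG-3 recruits maternal RNAs such as nos-2. These transcripts are largely supplied by the mother, and in somatic cells the germ plasm RNAs are degraded early while granule proteins are cleared by autophagy.

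Library totals over genes lay between 30171874 and 45677214 counts. The deleted genes were read first as a check of the labels. In CPM (counts divided by the TMM-adjusted library size and scaled to a common total), met-2 stood at 76.2 ± 5.88 in met-2 set-25 and 379 ± 29.8 in wild-type, set-25 at 25.7 ± 3.75 in met-2 set-25 and 104.3 ± 12.8 in wild-type, and cec-4 at 88.8 ± 15.4 in cec-4 and 277 ± 7.36 in wild-type (SD, n = 2 each). The cec-4 difference (log2 fold change -1.64, edgeR adjusted p = 0.0955) did not pass the threshold, while those of met-2 and set-25 did. For the labelled stage, 27 major sperm protein genes summed to between 0 and 6 counts per library, and 6 vitellogenin genes of the adult intestine to between 12 and 34. How reads that match several related genes were counted is not known here, so the low sperm sum cannot decide on the stage. Body muscle markers were present, and the 11 genes summed to 973 and 1104 CPM in met-2 set-25, 977 and 1772 CPM in cec-4, and 937 and 1710 CPM in wild-type. In whole embryos, fewer cells that hold a transcript and less of it per cell cannot be told apart.

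Fold changes are given as the genotype named first over the one named after it. No germ granule gene rose or fell in any of the 3 comparisons with edgeR at an adjusted p under 0.05. Between met-2 set-25 and wild-type 0 of 10 passed, where 0.688% of all genes tested did (0.659% higher, 0.0287% lower). For cec-4 against wild-type 0 of 10 passed, beside 0.00717% of all genes, all of it higher. For met-2 set-25 against cec-4 0 of 10 passed, beside 0.638% of all genes (0.609% higher, 0.0287% lower). At an unadjusted p under 0.05 the count with edgeR was 0 of 10 in each comparison, against 5.71%, 0.939% and 10.2% of all genes in that order. DESeq2, limma voom and limma on the deposited log2 values also called 0 of 10, with 0 at an unadjusted p under 0.05. Over all genes between met-2 set-25 and wild-type, DESeq2 called 183 higher and 13 lower, limma voom 95 and 3, and limma on the deposited values 130 and 7. In met-2 set-25 against cec-4 they called 226 and 19, 89 and 4, and 164 and 6, and in cec-4 against wild-type at most 2 in a direction. The 95% interval of the log2 fold change lay wholly within a 2-fold change for 8 of 10 genes between met-2 set-25 and wild-type (58.6% of all genes tested), and for 9 of 10 in cec-4 against wild-type (62.5%). It did so for 9 of 10 in met-2 set-25 against cec-4 (54% of all genes tested). The exceptions were glh-1 and nos-2 in the first comparison, glh-4 in the second and glh-2 in the third.

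**Figure D1:**
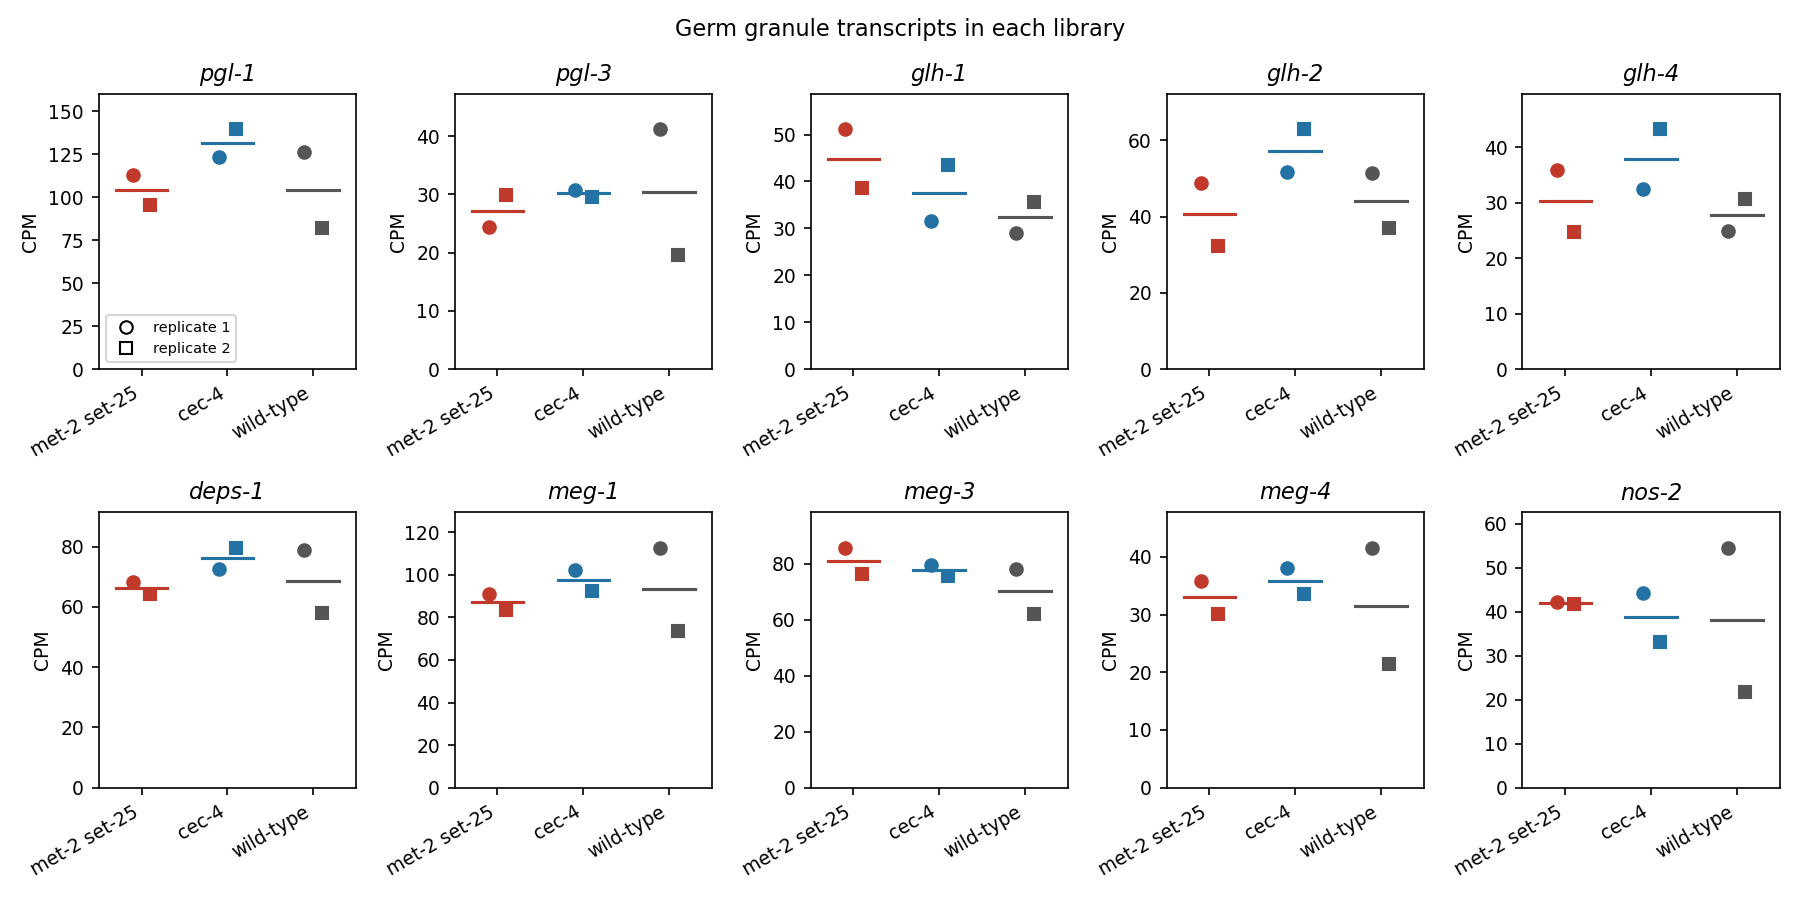
Each panel plots CPM on a linear axis from 0 for 1 gene. Circles are replicate 1, squares replicate 2, and bars the mean of the 2 libraries of met-2 set-25, cec-4 and wild-type. The wild-type libraries lie farther apart than those of the mutants for pgl-1, pgl-3, deps-1, meg-1, meg-3, meg-4 and nos-2, and the nos-2 points of wild-type are at 54.5 and 21.8 CPM.

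Per kilobase of coding sequence, the 10 transcripts spanned a range of levels that was similar in the 3 genotypes. In met-2 set-25 the highest was nos-2 at 53.8 ± 0.247 CPM per kb, in cec-4 pgl-1 at 56.7 ± 4.90, and in wild-type nos-2 at 48.9 ± 29.7 (SD, n = 2). The lowest in each genotype was glh-4, at 8.74 ± 2.26, 10.9 ± 2.20 and 8.01 ± 1.146 CPM per kb. Between them, nos-2, meg-1, pgl-1 and deps-1 formed the upper part in each genotype, meg-3 followed, and glh-1, glh-2, pgl-3 and meg-4 lay below. Among all genes tested, the mean level of nos-2 over the 6 libraries was above that of 71.7% and that of glh-4 above that of 42.9%. Both replicates of a gene lay above both of the next gene down for 6 of the 9 neighbouring pairs in met-2 set-25, 3 of 9 in cec-4 and 2 of 9 in wild-type. In all 3 genotypes this held for deps-1 over meg-3 and for meg-3 over the gene below it.

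The scaffold gene pgl-1 (WBGene00003992; WBcel235 chromosome IV, 6974441 to 6977318) stood at 112.7 and 95.5 CPM in met-2 set-25, 123 and 139 CPM in cec-4, and 126 and 82.2 CPM in wild-type. Both cec-4 libraries lay above both met-2 set-25 libraries, while the wild-type pair spanned the met-2 set-25 values. The log2 fold change of pgl-1 was -0.00 (SE 0.227) between met-2 set-25 and wild-type, 0.33 (SE 0.228) in cec-4 against wild-type and -0.34 (SE 0.228) in met-2 set-25 against cec-4, with edgeR adjusted p of 0.9997, 0.9998 and 0.675. Its relative pgl-3 (WBGene00003994; V, 4755979 to 4758587) stood at 24.3 and 29.96 CPM in met-2 set-25, 30.8 and 29.6 CPM in cec-4, and 41.1 and 19.5 CPM in wild-type. The highest and the lowest pgl-3 values were thus those of the 2 wild-type cultures, which differed 2.11-fold.

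Among the helicase genes, glh-1 (WBGene00001598; I, 6854478 to 6857536) stood at 51.1 and 38.6 CPM in met-2 set-25, 31.7 and 43.5 CPM in cec-4, and 29.1 and 35.7 CPM in wild-type. Both met-2 set-25 libraries were above both wild-type libraries, as they were for 14.5% of all genes tested, and glh-1 was the 1 gene of the 10 for which this held. Its log2 fold change of 0.47 (SE 0.245, edgeR adjusted p = 0.9997) between met-2 set-25 and wild-type did not pass, with a 95% interval from -0.09 to 1.03. The gene was also the only 1 of the 10 whose genotype means differed by more than its largest gap between replicates, by 0.464 against 0.457 on the log2 scale. The share of all genes tested for which this held was not computed.

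The helicase gene glh-2 (WBGene00001599; I, 6513928 to 6517507) stood at 48.8 and 32.3 CPM in met-2 set-25, 51.6 and 62.8 CPM in cec-4, and 51.3 and 37.1 CPM in wild-type. Its cec-4 libraries were higher than those of either other genotype, the margin over wild-type being 51.6 against 51.3 CPM, with a log2 fold change of 0.37 (SE 0.263, edgeR adjusted p = 0.9998) in cec-4 against wild-type and -0.50 (SE 0.264, adjusted p = 0.570) in met-2 set-25 against cec-4. The more distant family member glh-4 (WBGene00001601; I, 3727027 to 3731179) stood at 35.9 and 24.8 CPM in met-2 set-25, 32.4 and 43.3 CPM in cec-4, and 24.99 and 30.6 CPM in wild-type. The cec-4 libraries of glh-4 were again above both wild-type libraries, with a log2 fold change of 0.44 (SE 0.260, edgeR adjusted p = 0.9998). Both cec-4 libraries exceeded both wild-type libraries for 2 of 10 germ granule genes and for 11.8% of all genes tested.

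The gene deps-1 (WBGene00022034; I, 506473 to 509056) encodes a P granule protein that PGL-1 localisation and glh-1 transcript accumulation are known to need. It stood at 68.2 and 64.4 CPM in met-2 set-25, 72.6 and 79.6 CPM in cec-4, and 78.8 and 58.1 CPM in wild-type. The wild-type pair spanned both met-2 set-25 values, and the log2 fold changes were -0.05 (SE 0.198) in met-2 set-25 and 0.15 (SE 0.198) in cec-4 against wild-type (edgeR adjusted p = 0.9997 and 0.9998). The annotation places Y65B4BL.7, at 1.16 to 1.55 CPM, on the opposite strand across deps-1, with 0 bp of coding overlap. In met-2 set-25 against cec-4, pgl-1, glh-2, deps-1 and meg-1 had both libraries lower, which is 4 of 10 genes beside 21.2% of all genes tested, and none of the 10 had both higher (23.7%).

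None of the embryonic MEG genes passed the test, and in wild-type all 3 were higher in replicate 1. Transcripts of meg-1 (WBGene00010492; X, 13927036 to 13929634) stood at 90.8 and 83.5 CPM in met-2 set-25, 102.4 and 92.6 CPM in cec-4, and 112.7 and 73.7 CPM in wild-type. For meg-3 (WBGene00001569; X, 1986469 to 1989607), the values were 85.7 and 76.2 CPM in met-2 set-25, 79.7 and 75.8 CPM in cec-4, and 78.2 and 62.1 CPM in wild-type. The meg-3 fold changes had the narrowest intervals of the 10 genes. Its log2 fold change was 0.21 (95% interval -0.22 to 0.63) in met-2 set-25 and 0.15 (-0.28 to 0.57) in cec-4 against wild-type. Its close relative meg-4 (WBGene00016485; X, 1682954 to 1686419) stood at 35.8 and 30.2 CPM in met-2 set-25, 38.1 and 33.6 CPM in cec-4, and 41.6 and 21.5 CPM in wild-type. For meg-1 and meg-4 the wild-type cultures held both the highest and the lowest of the 6 values. How multiply matching reads were counted is not known here, and counts of close relatives such as meg-3 and meg-4, pgl-1 and pgl-3, or glh-1 and glh-2 are uncertain to that extent.

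The nanos homologue nos-2 (WBGene00003784; II, 7065618 to 7067051) is an RNA of the germ plasm whose product the primordial germ cells need. Its CPM was 42.1 and 41.8 in met-2 set-25, 44.3 and 33.1 in cec-4, and 54.5 and 21.8 in wild-type. The met-2 set-25 cultures were nearly equal, while the wild-type cultures differed 2.503-fold, the widest gap among the 10 genes. The log2 fold change was 0.14 (SE 0.380, 95% interval -0.73 to 1.01) in met-2 set-25 and 0.02 (SE 0.380, -0.85 to 0.89) in cec-4 against wild-type (edgeR adjusted p = 0.9997 and 0.9998). Without wild-type replicate 1 these fold changes of nos-2 were 0.95 and 0.83, and without wild-type replicate 2 they were -0.36 and -0.48, still with no call. The annotation places him-14 on the opposite strand across nos-2, but their coding parts share 0 bp. CPM of him-14 was 18.7 and 20.5 in met-2 set-25, 21.3 and 19.99 in cec-4, and 27.1 and 16.7 in wild-type.

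**Figure D2:**
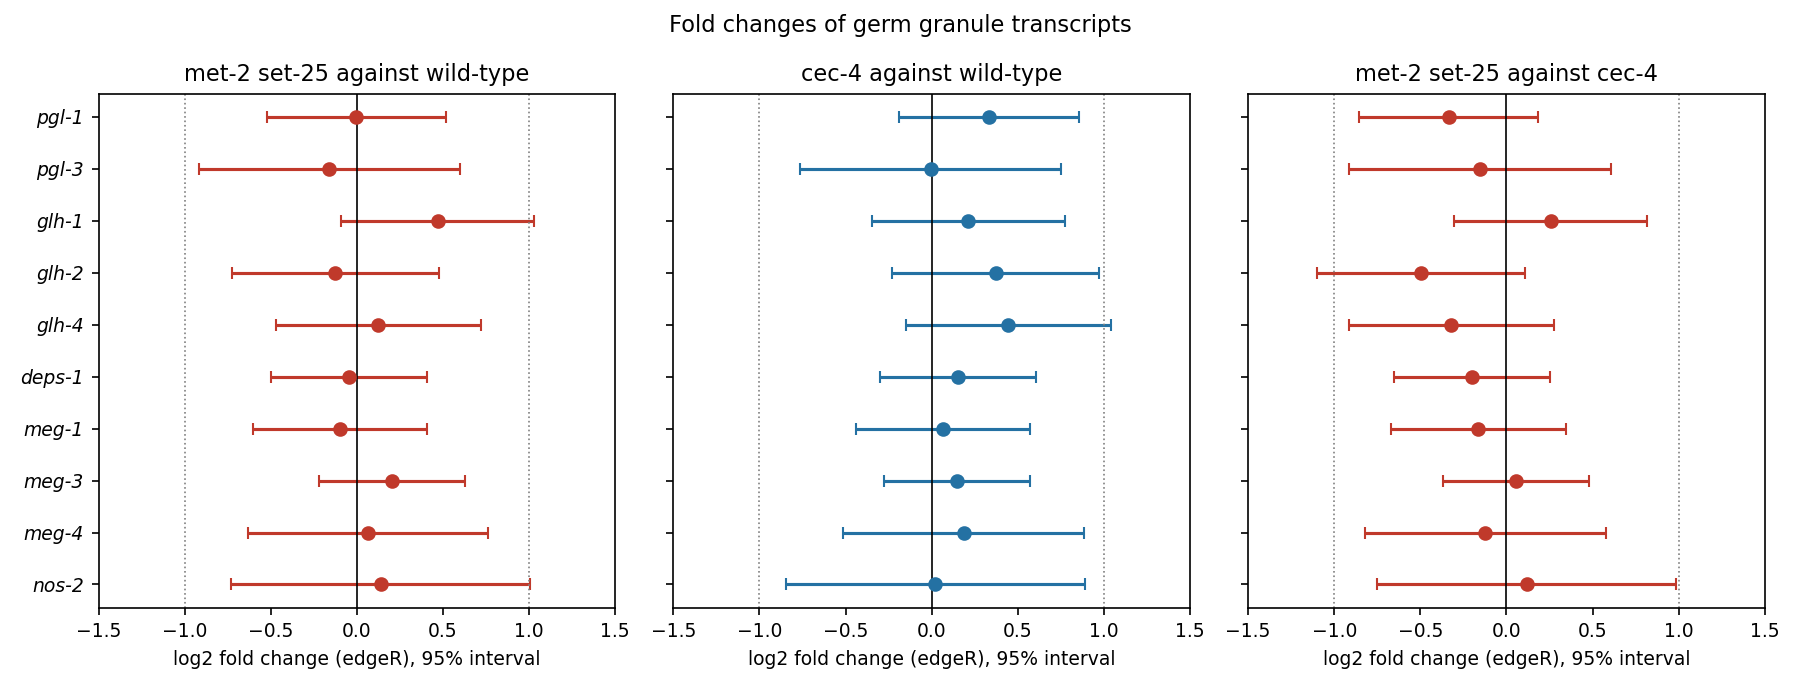
Points are edgeR log2 fold changes and bars their 95% intervals, with a panel for each comparison and dotted lines at a 2-fold change. All 30 intervals include 0, and those of pgl-3, meg-4 and nos-2 are the widest.

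As a group, the 10 genes showed a median of 0.03 in log2 fold change between met-2 set-25 and wild-type with 5 of 10 above 0, beside a median of -0.03 and 45.9% above 0 over all genes tested. In cec-4 against wild-type the median was 0.17 with 9 of 10 above 0, beside -0.02 and 45.3% over all genes. In met-2 set-25 against cec-4 it was -0.16 with 3 of 10 above 0, beside 0.01 and 51.6%. The comparisons share libraries, so the 3 medians are not independent. The medians against wild-type moved with the wild-type culture that was left out. Without wild-type replicate 1 they were 0.33 in met-2 set-25 and 0.52 in cec-4, and without wild-type replicate 2 they were -0.29 and -0.018.

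The gap between cultures of a genotype exceeded the range of the genotype means for 9 of the 10 genes, and for 7 of the 10 the largest gap was in wild-type. The shares of all genes tested for these counts were not computed. On the log2 scale (log2 of CPM plus 0.5), wild-type replicate 1 lay above replicate 2 by 1.30 for nos-2, 1.06 for pgl-3 and 0.93 for meg-4. These gaps were larger than those of 99.0%, 96.9% and 94.4% of all genes tested. The median absolute difference over all genes tested was itself largest in wild-type, at 0.331, beside 0.217 in met-2 set-25 and 0.234 in cec-4. The median difference over the 10 genes was 0.20 in met-2 set-25 with 9 of 10 higher in replicate 1, -0.04 in cec-4 with 5 of 10, and 0.54 in wild-type with 8 of 10. Over all genes tested it was -0.01, -0.01 and -0.05, with 49.03%, 48.2% and 46.3% higher in replicate 1. The helicase genes glh-1 and glh-4 went the other way from the rest in wild-type, at -0.29 each.

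**Figure D3:**
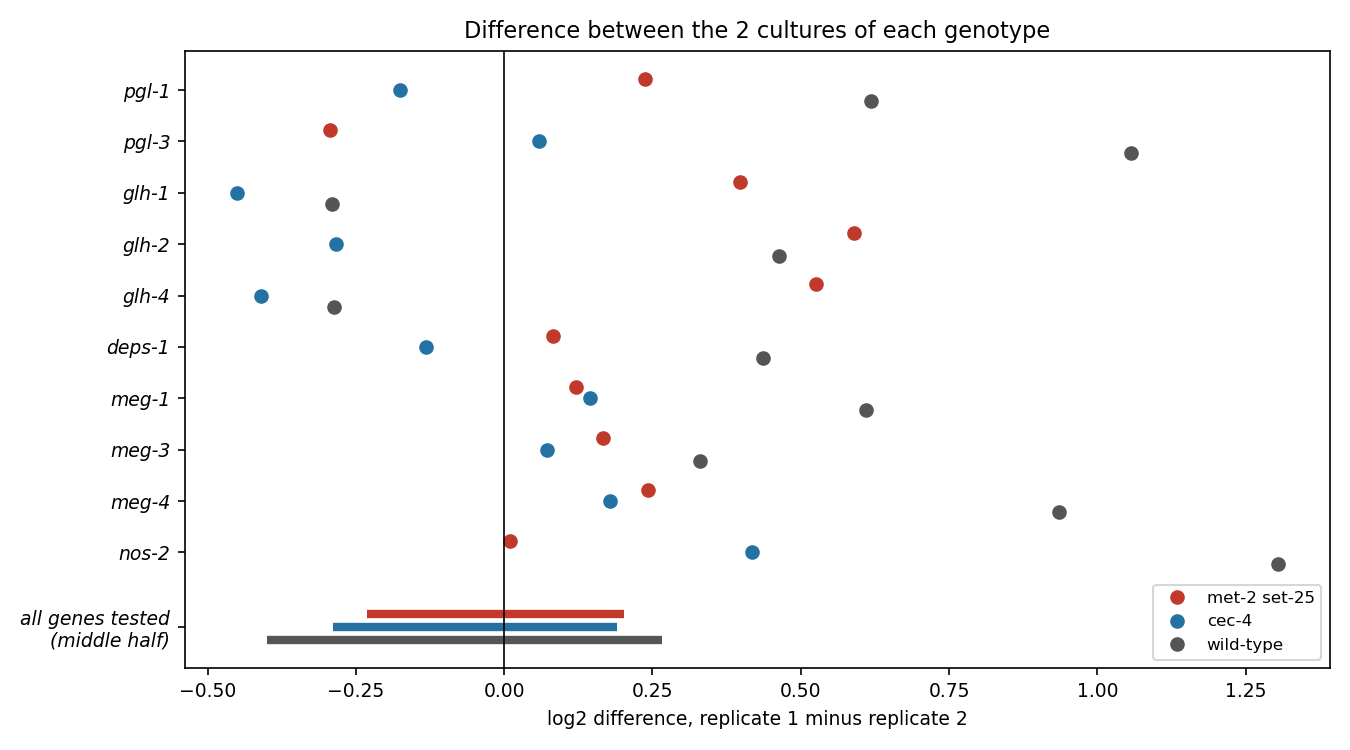
Points give the log2 difference between replicate 1 and replicate 2 of each genotype for each gene, and bars at the bottom the interquartile range of all genes tested. The wild-type points of nos-2 (1.30), pgl-3 (1.06) and meg-4 (0.93) lie far to the right of the wild-type bar, which ends at 0.266.

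Markers of stage also differed between the same cultures. Body muscle markers were lower in replicate 1 than in replicate 2 for 6 of 11 genes in met-2 set-25, with a median log2 difference of -0.18, and for 11 of 11 in cec-4 and 11 of 11 in wild-type, with medians of -0.76 and -0.90. Intestine markers were lower in replicate 1 for 8 of 8 genes tested in every genotype, with medians of -0.50 in met-2 set-25, -0.45 in cec-4 and -0.65 in wild-type. Early zygotic genes were higher in replicate 1 for 21 of 26 genes in met-2 set-25, 21 of 26 in cec-4 and 23 of 26 in wild-type, with medians of 0.29, 0.19 and 0.57. Meiotic germline markers were higher in replicate 1 for 7 of 13 genes in met-2 set-25, 8 of 13 in cec-4 and 13 of 13 in wild-type, with a median of 0.61 in wild-type. The part of these differences in the germ granule values was not tested.

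Ratios of related transcripts within a library do not depend on its total or scaling, and 5 were computed, of which glh-4 to glh-1 and meg-1 to meg-3 were added after the other 3. Per coding length, glh-2 to glh-1 was 0.749 and 0.655 in met-2 set-25, 1.28 and 1.13 in cec-4, and 1.38 and 0.815 in wild-type. The ratio was thus below 1 in both met-2 set-25 libraries and above 1 in both cec-4 libraries, while the wild-type libraries fell on either side. The ratio of glh-4 to glh-1 was 0.464 and 0.423 in met-2 set-25, 0.676 and 0.657 in cec-4, and 0.567 and 0.567 in wild-type, with no overlap between the genotypes. Such a separation of all 3 genotypes held for the ratio of 1 of the 45 pairs that the 10 genes allow, and for the level of 6.16% of all genes tested. Levels and ratios are unlike measures, and the share for ratios of other gene pairs was not computed. Groups of 2 cannot go below p = 0.333 in a two-sided exact permutation test, so these ratios are given as values.

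Each of the other ratios overlapped between some of the genotypes. That of meg-4 to meg-3 was 0.433 and 0.410 in met-2 set-25, 0.495 and 0.460 in cec-4, and 0.550 and 0.358 in wild-type. For pgl-3 to pgl-1 the mean was 0.294 ± 0.0767 in met-2 set-25, 0.257 ± 0.0296 in cec-4 and 0.313 ± 0.0689 in wild-type (SD, n = 2 each). For meg-1 to meg-3 it was 1.46 ± 0.0337, 1.70 ± 0.0610 and 1.78 ± 0.244 in the same order, with both met-2 set-25 libraries below the other 4. The share of gene pairs with 1 genotype apart in this way was not computed.

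**Figure D4:**
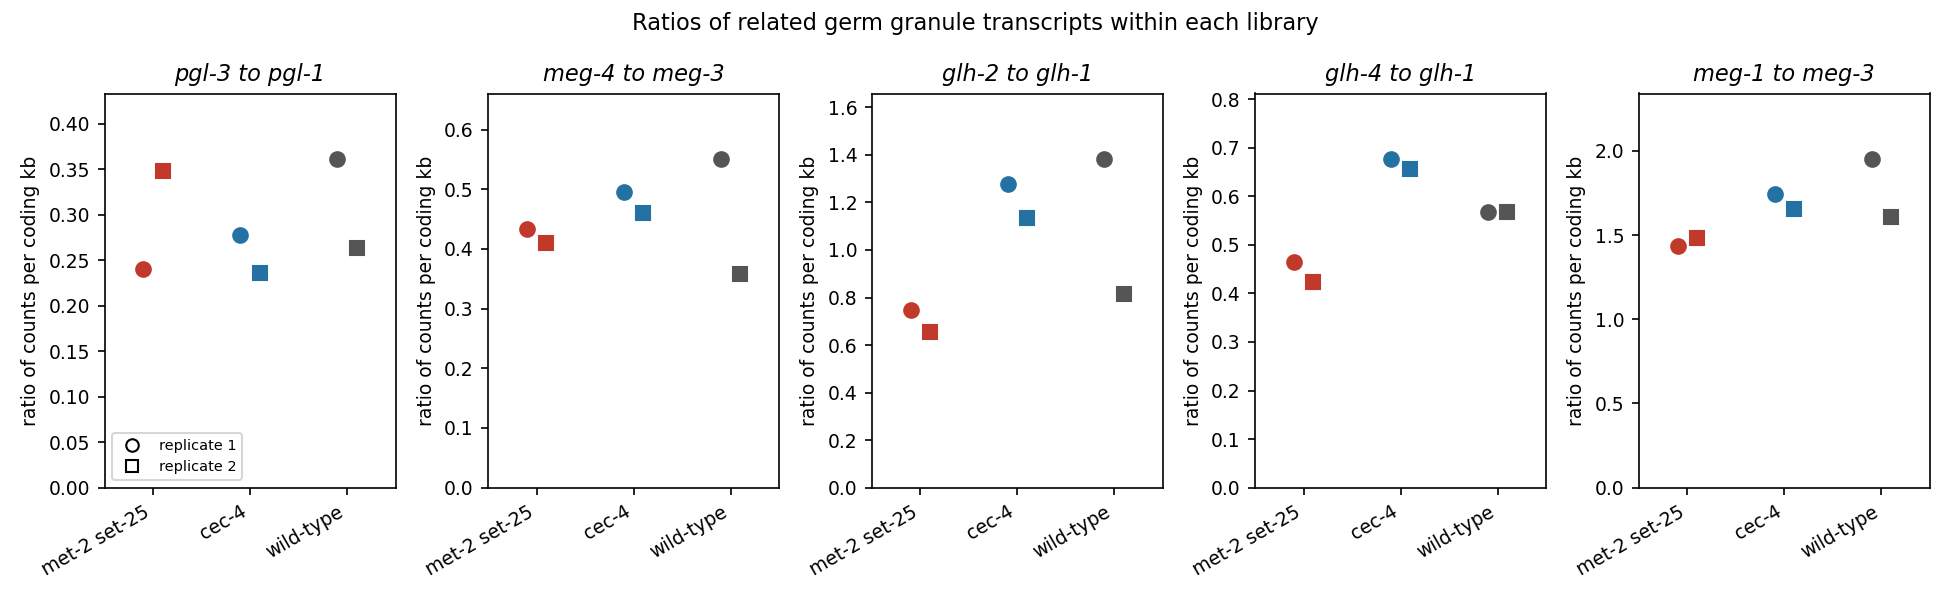
Each panel gives, on a linear axis from 0, the ratio of counts per coding kilobase of 2 related genes in each library (circles replicate 1, squares replicate 2). The pgl-3 to pgl-1 and meg-4 to meg-3 ratios overlap between genotypes, while glh-4 to glh-1, a ratio added later, is 0.464 and 0.423 in met-2 set-25, 0.676 and 0.657 in cec-4, and 0.567 in both wild-type libraries.

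Other parts of the pathway were read from lists, given by their counts. Of 23 other germ granule proteins tested, 0 rose and 0 fell with edgeR in each comparison. At an unadjusted p under 0.05 there were 1 for met-2 set-25 and 0 for cec-4 against wild-type, and 7 of 23 for met-2 set-25 against cec-4, beside 5.71%, 0.939% and 10.2% of all genes. The median log2 fold changes were -0.03 in met-2 set-25 and 0.16 in cec-4 against wild-type, and -0.18 in met-2 set-25 against cec-4. The member of smallest p between met-2 set-25 and wild-type was ife-1, an eIF4E isoform that binds PGL-1, at 148 and 143 CPM in met-2 set-25 and 120.4 and 96.5 CPM in wild-type (log2 fold change 0.43, SE 0.183, edgeR adjusted p = 0.861). In cec-4 against wild-type it was the Argonaute gene csr-1 (0.39, SE 0.225, adjusted p = 0.9998). In met-2 set-25 against cec-4 it was znfx-1, a helicase of the granules beside P granules (-0.83, SE 0.241, adjusted p = 0.293).

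The third PGL gene, pgl-2, stood at 16.03 and 20.3 CPM in met-2 set-25, 19.3 and 16.6 CPM in cec-4, and 22.1 and 12.2 CPM in wild-type. The fourth helicase gene, glh-3, stood at 51.4 and 42.3 CPM in met-2 set-25, 45.6 and 39.7 CPM in cec-4, and 50.3 and 30.2 CPM in wild-type. The meg-1 relative meg-2 stood at 17.8 and 11.7 CPM in met-2 set-25, 19.5 and 22.5 CPM in cec-4, and 17.0 and 17.6 CPM in wild-type. Both wild-type cultures had almost equal meg-2 values, unlike those of meg-1, and the cec-4 libraries of meg-2 were the highest. Its log2 fold change was 0.28 in cec-4 against wild-type and -0.51 in met-2 set-25 against cec-4 (edgeR adjusted p = 0.9998 and 0.553). Among all genes tested, 11.8% had both cec-4 libraries above both wild-type libraries.

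Of 24 germ plasm RNA-binding regulators, 0 rose and 0 fell with edgeR in each comparison, and at an unadjusted p under 0.05 there were 0, 0 and 6 of 24, beside 5.71%, 0.939% and 10.2% of all genes. Their median log2 fold change was -0.17 with 4 of 24 above 0 between met-2 set-25 and wild-type, 0.25 with 22 of 24 above 0 in cec-4 against wild-type, and -0.43 with 2 of 24 above 0 in met-2 set-25 against cec-4. Over all genes the shares above 0 were 45.9%, 45.3% and 51.6%. Replicates of these regulators also differed, and the median log2 difference of replicate 1 from replicate 2 was 0.39 in met-2 set-25 with 22 of 24 higher in replicate 1, -0.27 in cec-4 with 6 of 24, and 0.40 in wild-type with 20 of 24. The medians of this list were not recomputed with libraries left out. The member of smallest p in all 3 comparisons was puf-5, a Pumilio family gene of oogenesis, at 65.1 and 58.1 CPM in met-2 set-25, 85.1 and 116 CPM in cec-4, and 90.3 and 66.4 CPM in wild-type. Its edgeR adjusted p were 0.9997, 0.9998 and 0.361 in the order of the medians. The maternal regulator pie-1, which blocks transcription in germline precursors, stood at 25.4 and 17.9 CPM in met-2 set-25, 23.7 and 29.1 CPM in cec-4, and 21.3 and 20.2 CPM in wild-type.

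Among 15 granule segregation and polarity genes, 19 autophagy genes, 17 synMuv B genes and 8 of their antagonists, 0 rose and 0 fell with edgeR in each comparison. At an unadjusted p under 0.05, 1 synMuv B gene passed for met-2 set-25 and 0 genes for cec-4 against wild-type, beside 5.71% and 0.939% of all genes. For met-2 set-25 against cec-4 there were 5 of 15 segregation and polarity genes, 1 of 19 autophagy genes, 2 of 17 synMuv B genes and 1 of 8 antagonists, beside 10.2% of all genes. The segregation and polarity genes had medians of -0.08 in met-2 set-25 and 0.13 in cec-4 against wild-type, and mbk-2, the kinase that phosphorylates MEG proteins, stood at 264 ± 58.1 CPM in met-2 set-25 and 355 ± 69.0 CPM in wild-type (log2 fold change -0.43, SE 0.263, edgeR adjusted p = 0.9997). Of this list, par-1, a polarity kinase of the posterior cortex, had the smallest p in cec-4 against wild-type (0.54, SE 0.294, edgeR adjusted p = 0.9998). It also had the smallest p in met-2 set-25 against cec-4 (-0.97, SE 0.296, edgeR adjusted p = 0.319). The autophagy genes had medians of -0.05 and 0.07, and epg-5, an autophagy gene, stood at 88.5 ± 13.3 CPM in met-2 set-25, 145 ± 30.9 CPM in cec-4 and 115 ± 12.6 CPM in wild-type (SD, n = 2 each).

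The synMuv B genes, which include repressors of germline genes in somatic cells, had medians of 0.07 in met-2 set-25 and 0.14 in cec-4 against wild-type. Of these, lin-13, which encodes a zinc finger protein, stood at 1144 and 1026 CPM in met-2 set-25, 722 and 849.9 CPM in cec-4, and 676 and 577 CPM in wild-type. Its libraries separated all 3 genotypes, as did those of 6.16% of all genes tested. The lin-13 log2 fold change of 0.79 (SE 0.175, edgeR adjusted p = 0.129) between met-2 set-25 and wild-type did not pass. Their antagonists had medians of 0.04 and 0.06, with zfp-1 of smallest p in cec-4 against wild-type (0.49, SE 0.277, edgeR adjusted p = 0.9998). The same gene had the smallest p in met-2 set-25 against cec-4 (-0.78, SE 0.278, edgeR adjusted p = 0.418).

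Among 13 meiotic germline markers, 1 rose and 0 fell in met-2 set-25 against cec-4, beside 0.609% and 0.0287% of all genes, and 0 passed with edgeR in the other comparisons. At an unadjusted p under 0.05 there were 1 of 13 for met-2 set-25 and 0 for cec-4 against wild-type, and 2 of 13 for met-2 set-25 against cec-4, beside 5.71%, 0.939% and 10.2% of all genes. The gene that rose was syp-1, a central part of the synaptonemal complex, at 151.9 and 122 CPM in met-2 set-25, 60.0 and 50.6 CPM in cec-4, and 67.2 and 52.98 CPM in wild-type. The gene was higher by 1.31 on the log2 scale than in cec-4 (SE 0.207, edgeR adjusted p = 0.0364), and by 1.19 than in wild-type (SE 0.206, adjusted p = 0.0517), which did not pass. The call against cec-4 was not kept without either met-2 set-25 library or either cec-4 library, where 1 library of that genotype remained. Fewer of all genes tested were called in those fits too. The log2 fold change of syp-1 in them lay between 1.14 and 1.46. No member of the early zygotic, body muscle, intestine or vitellogenin lists passed with edgeR, and at an unadjusted p under 0.05 there was 1 of 26 early zygotic genes for met-2 set-25 against cec-4 (10.2% of all genes). Their medians in met-2 set-25 and in cec-4 against wild-type were 0.15 and -0.00 for early zygotic genes, -0.36 and 0.10 for body muscle, and -0.13 and -0.15 for intestine, and 1 vitellogenin gene and 0 sperm genes were abundant enough to test.

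**Figure D5:**
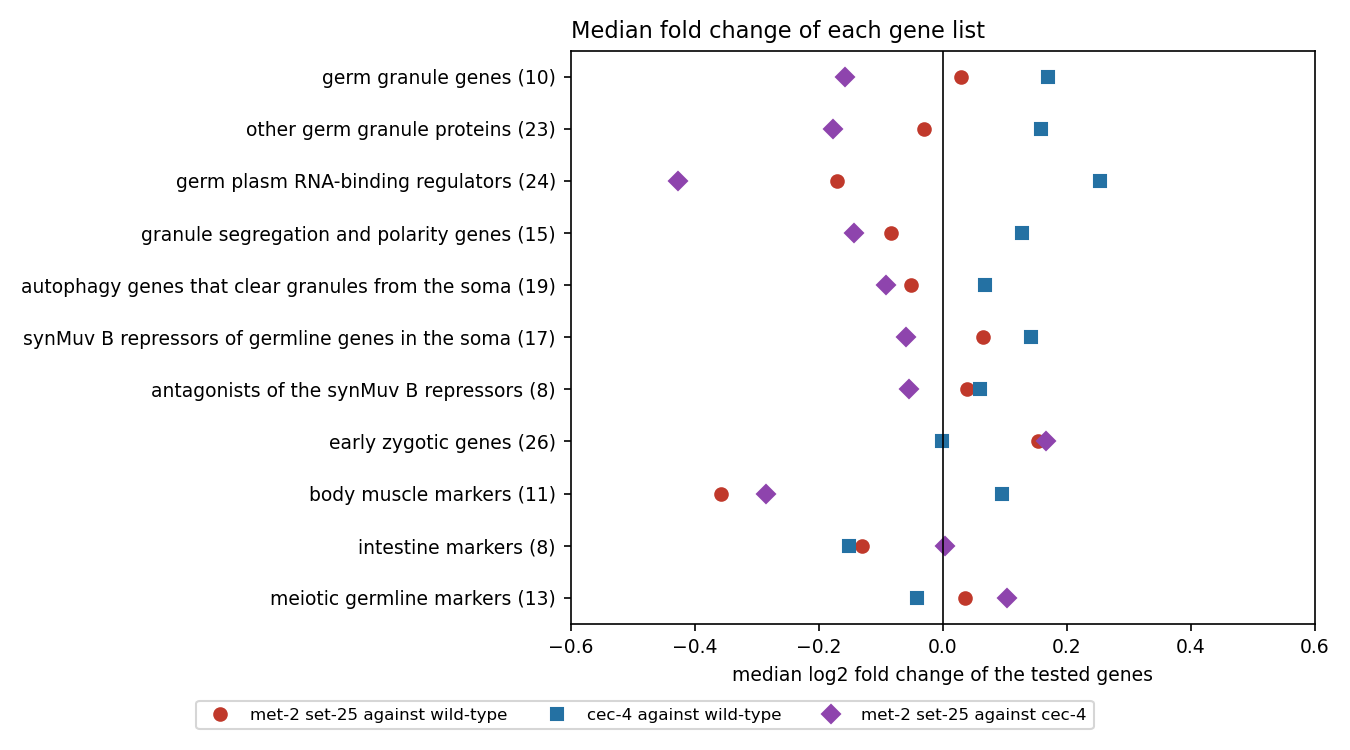
Points give the median log2 fold change of each list (number of genes tested in brackets) between met-2 set-25 and wild-type (circles), cec-4 against wild-type (squares) and met-2 set-25 against cec-4 (diamonds). The 10 germ granule genes lie at 0.03, 0.17 and -0.16, and the germ plasm RNA-binding regulators, whose replicates differ by medians of up to 0.40, at -0.17, 0.25 and -0.43.

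Of the 10 genes, 4 lie on chromosome I and 3 on X, and 172 other tested genes lie within 50 kb of 1 of them in WBcel235. Among these neighbours 1 rose and 0 fell between met-2 set-25 and wild-type, which is 0.581%, beside 0.659% of all genes tested that rose. The neighbour was the pseudogene WBGene00018690 (X, 1981900 to 1984833), 1635 bp from meg-3. It stood at 36.01 and 41.3 CPM in met-2 set-25, 11.9 and 10.5 CPM in cec-4, and 14.8 and 9.09 CPM in wild-type, a log2 fold change of 1.69 (SE 0.282, edgeR adjusted p = 0.0440) against wild-type. That call was not kept without met-2 set-25 replicate 1, met-2 set-25 replicate 2 or wild-type replicate 2, where fewer of all genes tested were also called. The log2 fold change of the pseudogene in those fits was 1.79, 1.59 and 1.40 in that order. The gene meg-3 beside it was not called in any setting.

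The mean profile of the 10 genes over the 6 libraries, each gene centred on its own mean log2 level, was 0.09 and -0.12 in met-2 set-25, 0.09 and 0.15 in cec-4, and 0.15 and -0.37 in wild-type. Wild-type replicate 2 was the lowest library. The deps-1 profile was closest to this mean, with a root mean square difference of 0.0692, and that of glh-1 the farthest, at 0.320. Among 11239 genes with a mean of at least 1 CPM, members left out, the 5 closest over the 6 libraries were Y73B6BL.23 (0.0376), F25G6.9 (0.0401), the proteasome ATPase gene rpt-2 (0.0411), the polo kinase gene plk-1 (0.0453) and F28C10.3 (0.0469). All 5 were closer to the mean than any of the 10 germ granule genes, and 7010 of the 11239 genes were closer than glh-1. The 5 were picked for their closeness, so this cannot show whether the 10 genes share a profile.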

How the data were processed

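The authors deposited raw read counts per gene, used as deposited, and a table of log2 values, which a recomputation matched when counts were scaled to a common total (the mean) and 8 was added before the log. Per the labels' protocols, ribosomal RNA was depleted with Ribo-Zero and libraries were made with ScriptSeq v2. No source used here names the aligner, counter, genome build or use of strand. Deposited gene widths equal the WBcel235 coding length plus the 3 bp stop codon for 10 of the 10 genes. The deposited window counts were not used. No reference sequences were used.

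The test was edgeR 4.0.16 under R 4.3.3 (filterByExpr, TMM, quasi-likelihood test, genotype as the term, all 6 libraries in 1 fit), with Benjamini-Hochberg adjustment over 13951 genes and a threshold of 0.05. SEs were taken from the fold change and the F statistic, and 95% intervals from a t distribution with the fit's degrees of freedom. CPM use TMM-adjusted library sizes, and CPM per kb divide by the deposited width. Errors after ± are SDs over 2 cultures. Alternatives were RLE and upper quartile scaling, 2 other filters, DESeq2 1.42.0, limma 3.58.1 (voom, and the log2 values), only the genotypes compared, a replicate block, and each library left out. The edgeR fit was also run on simulated counts, and the outcome is not given here. Replicates differed by more than sampling noise (chi-square per degree of freedom 46.4 in met-2 set-25, 65.6 in cec-4 and 111 in wild-type).

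The 10 genes and the 12 other lists were chosen with earlier results of these data known, and 2 listed symbols had no row. Named from the lists are the members that passed, otherwise the member of smallest p. The marker lists are given by medians alone unless a member passed. Outside this rule pgl-2, glh-3, meg-2 and pie-1 were named after their values were seen.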

Additional observations from a re-analysis of the deposited data

How the results depend on the processing

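All 3 counts of germ granule genes called were 0 with edgeR and stayed 0 under each of the 15 alternatives. At an unadjusted p under 0.05 the count was 0 in the alternatives that left no single library out, with 1 exception. That was 1 of 10 in met-2 set-25 against cec-4 with a replicate block. The count also rose above 0 in some fits that left a library out. Shares of all genes at that threshold under the alternatives are not given here. When each library was left out in turn, the median of the 10 genes ran from -0.29 to 0.33 with met-2 set-25 over wild-type, from -0.018 to 0.52 with cec-4 over wild-type, and from -0.23 to -0.09 with met-2 set-25 over cec-4. The ends of the first 2 ranges were reached without wild-type replicate 2 and without wild-type replicate 1. Under the other 9 alternatives they lay between 0.01 and 0.11, 0.12 and 0.19, and -0.17 and -0.05. With a replicate block the medians were 0.06, 0.19 and -0.15, with 0 genes called, and glh-2 reached a log2 fold change of -0.53 (edgeR adjusted p = 0.291) in met-2 set-25 against cec-4. The labels do not say that a replicate number marks a shared batch. Differences between replicates correlated over genes at 0.18 between met-2 set-25 and cec-4, 0.33 between met-2 set-25 and wild-type, and 0.66 between cec-4 and wild-type. The deposited log2 values, which have no TMM scaling, moved the median of all genes to 0.11 in met-2 set-25 against cec-4. The sign of pgl-1 between met-2 set-25 and wild-type, at -0.00, changed in 9 of 15 alternatives. With 2 cultures a genotype, the SEs of the 10 genes limit what could be detected, and those of nos-2 (0.380 between met-2 set-25 and wild-type) are the largest.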
